A study of Mus musculus with 8 samples.

Results

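The comparison is of NMuMG cells kept for 30 h with BRM014 against NMuMG cells kept for 30 h with the vehicle DMSO. The treatment and time labels put 2 libraries in each of these groups, which makes 4 of the 8 libraries of the series. The other 4 libraries hold the same treatments after 6 h and are used below to ask whether an effect at 30 h differed from that at 6 h. They also entered the same fit, so they bear on the filter, the scaling and the spread behind every call at 30 h. NMuMG is an established epithelial line from normal mouse mammary gland. All groups were of wild-type genotype and were grown in medium with serum and insulin before treatment. The dose of BRM014 is not given in the sources used here, and a single line was studied, so nothing below speaks for other mammary cells. The 2 libraries of a group are labelled as biological replicates without a statement that they came from separate passages or days. P-values therefore measure the spread between these libraries, which may be technical.

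BRM014 is an inhibitor of the ATPase activity of SMARCA4 (BRG1) and SMARCA2 (BRM), the alternative motors of the SWI/SNF chromatin remodelling complexes. These complexes use ATP to slide or evict nucleosomes and so keep enhancers and promoters open to transcription factors. NMuMG cells form polarised sheets with adherens and tight junctions, and are widely used to study how epithelial cells lose those features under TGF-beta.

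The 4 libraries held 17859693 to 29955366 counts, and replicates correlated with r = 0.990 (DMSO) and r = 0.992 (BRM014) on the log2 CPM scale, where CPM is the read count scaled to a common library size with TMM factors. The first principal component of these 4 libraries carried 86.9% of the variance and separated BRM014 from DMSO, and the next carried 7.98% and separated the replicate numbers. The epithelial markers Krt8, Krt18, Krt19 and Cdh1 were each above 300 CPM in every library, whereas Epcam and Cldn7 had 0 counts in all 4 and Krt7 and Esrp1 were under 1 CPM. Summed over 8 markers, the epithelial level was 5552 to 5716 CPM in DMSO and 7432 to 8666 CPM in BRM014. Krt8, Krt18 and Cdh1 carried that rise, while Krt19 went the other way, from 1202 and 1196 CPM to 652 and 663 CPM. Markers of other cell types were near 0. Myoepithelial markers summed to 3.63 to 8.64 CPM in DMSO and 0.130 to 0.321 CPM in BRM014, in DMSO mostly Krt14, with the other 7 markers under 1 CPM in every library. The fibroblast sum over 8 markers, of which Lum and Thy1 were at 0, was 2.19 to 2.77 CPM in DMSO and 1.12 to 1.34 CPM in BRM014, and the endothelial sum over 8 markers stayed under 0.5 CPM. The 9 leukocyte markers found gave 3.94 to 6.52 CPM against 2.28 to 2.62 CPM, nearly all of it Cd68, with Ptprc at 0 in 3 of the 4 libraries. The 8 adipocyte markers gave 3.70 to 5.21 CPM against 2.73 to 3.16 CPM, nearly all of it Pparg, with Lep and Retn at 0. In these bulk libraries, fewer cells of a type and less RNA per cell cannot be told apart.

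Of 11835 tested genes, 4248 (35.9%) passed at 30 h with an adjusted p below 0.05 in the edgeR quasi-likelihood test with Benjamini-Hochberg adjustment, the test behind every adjusted p below. Of these, 1990 (16.8% of the tested genes) were higher with BRM014 and 2258 (19.1%) were lower. Of the higher genes 551 (4.66%) changed at least 2-fold, 156 at least 4-fold and 28 at least 16-fold, and of the lower genes 779 (6.58%), 398 and 153 did. These are fitted fold changes, which are not measured folds where a group held 0 counts. Krt16, for example, had 0 counts in BRM014 and a fitted log2 fold change of -7.255. Its counts place it only at least 13.96-fold lower, against a floor of 3 counts over the group. Small changes were common too, since 1871 of the passing genes (44.0%) moved by less than 1.5-fold. The libraries of the 2 groups did not overlap in 66.8% of tested genes (32.9% higher and 33.9% lower with BRM014), a share against which each statement of no overlap below is to be read. Each count of list members that rose or fell is likewise to be read against the 16.8% and 19.1% of all tested genes. The median log2 fold change of all tested genes was -0.005, and the values from the 5th to the 95th percentile ran from -1.38 to 1.04. Values of a gene are given as the CPM of replicates 1 and 2 in DMSO and then in BRM014. The log2 fold change of 2 libraries against 2 follows, ± its standard error. That error was worked back from the test statistic, so its spread is estimated over all 4 groups and not from these libraries alone.

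**Figure D1:**
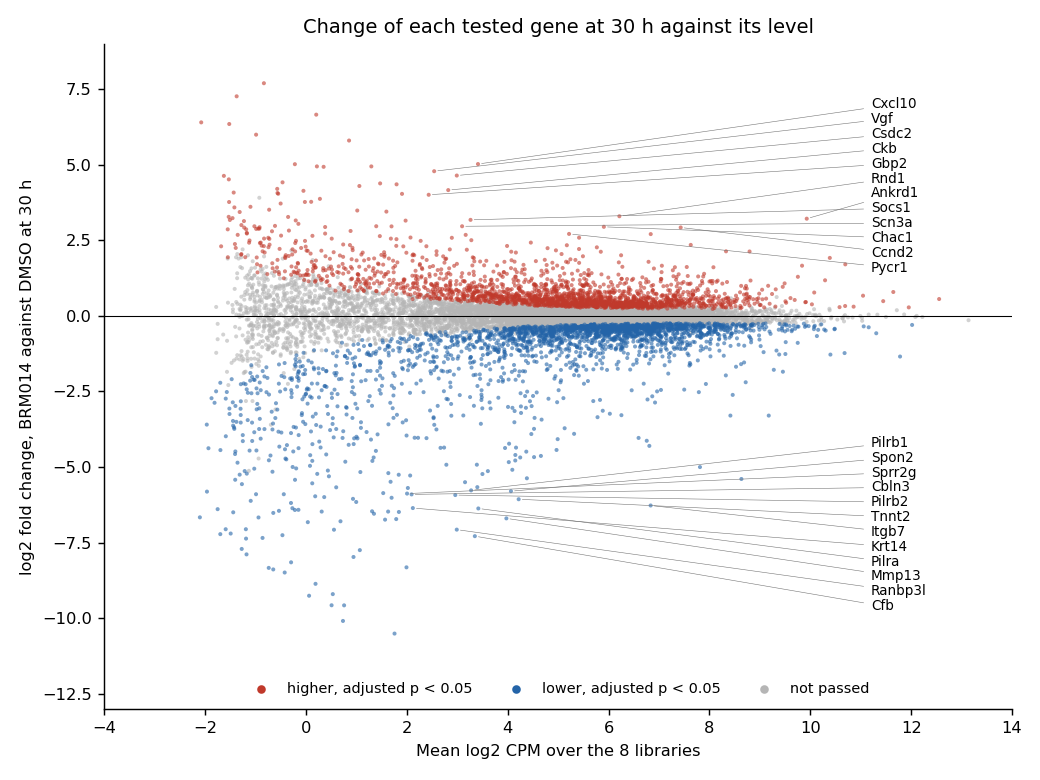
Each point is 1 of 11835 tested genes, with its mean log2 CPM over the 8 libraries on the x axis and its log2 fold change at 30 h on the y axis. Red points passed as higher, blue as lower and grey did not pass, and the 12 highest and 12 lowest genes with a mean log2 CPM of at least 2 carry names. The blue points reach further from 0 than the red ones at the same level, with 153 genes at least 16-fold lower and 28 at least 16-fold higher. These counts use the fitted value, which is not a measured fold where a group held 0 counts.

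Neither ATPase gene of the SWI/SNF complexes passed the test at 30 h. Smarca4 (Entrez 20586) held 359 and 379.7 CPM in DMSO and 372 and 407 CPM in BRM014, and the groups overlapped (0.08 ± 0.09, adjusted p = 0.565). Smarca2 (Entrez 67155) held 5.92 and 6.48 CPM and 7.92 and 7.04 CPM (0.26 ± 0.21, adjusted p = 0.347). Of 26 tested subunit genes, 8 passed, a share near the 35.9% of all tested genes, with 5 higher, 3 lower and 18 not passing, with a median of -0.04. The gene with the largest change was Bicral (Entrez 210982), which encodes a subunit of the non-canonical form of the complex, with 21.6 and 25.9 CPM in DMSO and 65.8 and 56.1 CPM in BRM014 (1.35 ± 0.12, adjusted p = 2.36e-06). Both BRM014 libraries lay well above both DMSO libraries. The other 4 risers were Bcl7c, Dpf1 and, named after their values were seen, Arid1a and Phf10 (0.51 ± 0.15, 0.70 ± 0.22, 0.30 ± 0.10 and 0.30 ± 0.10), and the fallers were Dpf2, Smarcd2 and Smarce1 (-0.41 ± 0.10, -0.39 ± 0.10 and -0.29 ± 0.10). Each of these 7 calls ended when 1 library was left out. That library was BRM014 30 h replicate 1 for Bcl7c (adjusted p = 0.0825), DMSO 30 h replicate 1 for Smarcd2 (adjusted p = 0.0599) and BRM014 30 h replicate 2 for Dpf2 (adjusted p = 0.05899). Dpf1 lost its call without either DMSO library or BRM014 30 h replicate 2, Phf10 without DMSO 30 h replicate 2, BRM014 30 h replicate 1 or BRM014 6 h replicate 2, and Arid1a and Smarce1 without any of several libraries, DMSO 30 h replicate 1 and both BRM014 libraries at 30 h among them (adjusted p up to 0.117, 0.134, 0.232 and 0.239).

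Among genes with a mean log2 CPM of at least 2, those with the lowest fold changes had varied functions. Complement factor B (Cfb, Entrez 14962), a protease of the alternative complement pathway, held 30.1 and 40.95 CPM in DMSO and 0.161 and 0.261 CPM in BRM014 (-7.29 ± 0.31, adjusted p = 3.07e-09). The integrin gene Itgb7 (Entrez 16421) held 176 and 146 CPM and 3.05 and 1.401 CPM (-6.27 ± 0.23, adjusted p = 1.01e-09). Tnnt2 (Entrez 21956), the cardiac form of troponin T, held 28.6 and 15.8 CPM and 0.321 and 0.326 CPM (-6.07 ± 0.38, adjusted p = 8.51e-08). All 3 genes were nearly silent in both BRM014 libraries. Cbln3 (Entrez 56410), a cerebellin known as a synapse organiser, held 9.57 and 13.1 CPM and 0.268 and 0.1304 CPM (-5.91 ± 0.38). Spon2 (Entrez 100689), a secreted matrix protein of the spondin family, held 52.5 and 49.1 CPM and 1.28 and 0.652 CPM (-5.80 ± 0.25). Sprr2g (Entrez 20761), a cornified envelope gene with close relatives among which reads may be split, held 13.6 and 10.7 CPM and 0.107 and 0.261 CPM (-5.88 ± 0.36). Ranbp3l was lower as well, with 16.4 and 44.1 CPM and 0.0535 and 0.326 CPM (-7.07 ± 0.71). Its DMSO libraries differed from each other, but both were far above BRM014.

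The paired immunoglobulin-like receptor genes Pilra, Pilrb1 and Pilrb2 lie next to each other on chromosome 5 in the RefSeq annotation of GRCm38.p6, and all 3 were among the 12 lowest genes. Pilra (Entrez 231805), the inhibitory receptor, held 28.6 and 26.1 CPM in DMSO and 0.375 and 0.293 CPM in BRM014 (-6.37 ± 0.27, adjusted p = 3.12e-09). Pilrb1 (Entrez 170741), an activating receptor, held 20.9 and 20.3 CPM and 0.642 and 0.196 CPM (-5.77 ± 0.30). For Pilrb2 (Entrez 545812) the values were 19.9 and 18.1 CPM and 0.428 and 0.228 CPM (-5.93 ± 0.28). In each of the 3 genes the higher BRM014 library was below 1 CPM and the lower DMSO library above 18 CPM. The 2 Pilrb genes are similar in sequence, so how their reads were divided is uncertain.

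Several of the largest rises in the same range of levels began from little RNA in DMSO. The neuropeptide precursor Vgf (Entrez 381677) held 0.435 and 0.263 CPM in DMSO and 8.67 and 10.4 CPM in BRM014 (4.79 ± 0.54, adjusted p = 1.59e-05), and the brain-type creatine kinase Ckb (Entrez 12709) held 1.36 and 0.963 CPM and 18.7 and 22.5 CPM (4.16 ± 0.30). Csdc2 (Entrez 105859), a cold-shock domain RNA-binding protein, held 1.09 and 0.788 CPM and 21.9 and 24.7 CPM (4.65 ± 0.25). Scn3a (Entrez 20269), a voltage-gated sodium channel subunit, held 2.66 and 2.49 CPM and 20.4 and 19.98 CPM (2.97 ± 0.18). In these 4 genes both BRM014 libraries were several times above both DMSO libraries. Other genes rose from levels that were already substantial. Ankrd1 (Entrez 107765), a nuclear ankyrin-repeat protein and a YAP target, held 169 and 187 CPM and 1675 and 1634 CPM (3.22 ± 0.13, adjusted p = 2.86e-09). Rnd1 (Entrez 223881), an atypical small GTPase that loosens actin stress fibres, held 20.002 and 16.6 CPM and 148 and 211 CPM (3.30 ± 0.20). Ccnd2 (Entrez 12444), cyclin D2, held 49.2 and 55.8 CPM and 379 and 421 CPM (2.93 ± 0.20, adjusted p = 1.61e-07). Their replicates lay close together and far from the other group.

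**Figure D2:**
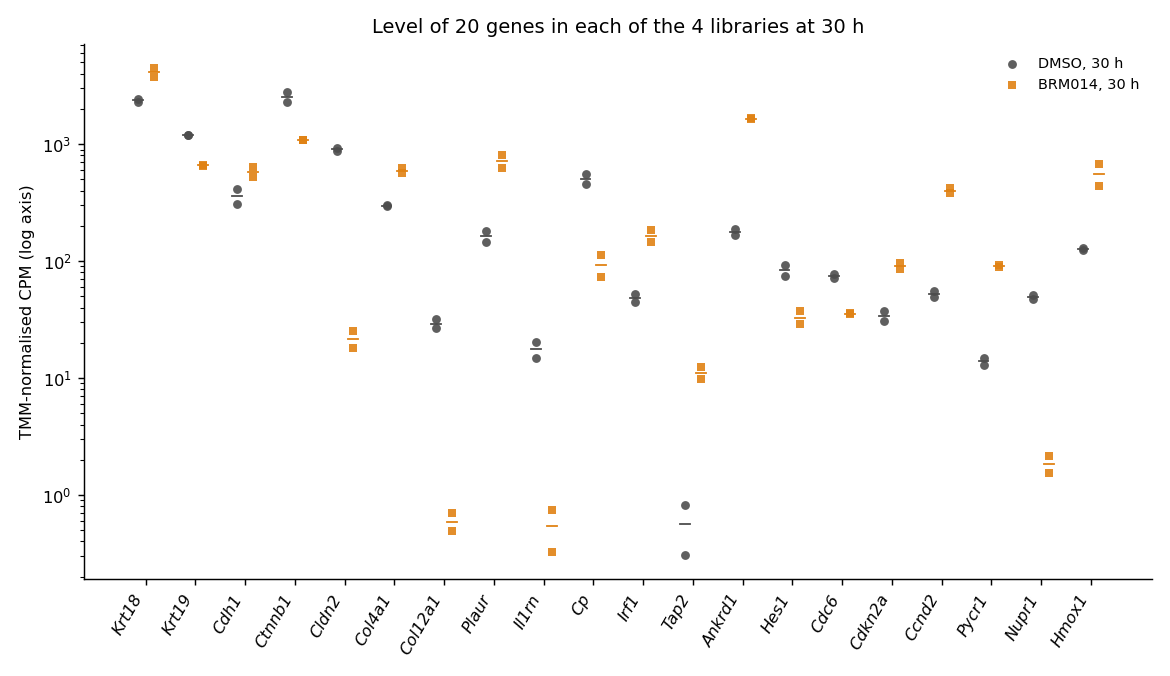
Level of 20 genes in each of the 4 libraries at 30 h, in TMM-normalised CPM on a log axis. Circles are DMSO libraries, squares BRM014 libraries and short bars the mean of 2 libraries. In none of the 20 genes do the groups overlap, and Il1rn in BRM014 and Tap2 in DMSO are under 1 CPM in both libraries.

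Genes of epithelial structure moved in both directions within families. Among keratins, which form the intermediate filaments of epithelia, the abundant pair Krt8 and Krt18 rose, while 7 others, among them Krt14, Krt6a and Krt76, fell. Krt18 (Entrez 16668) held 2448 and 2292 CPM in DMSO and 3757 and 4453 CPM in BRM014 (0.79 ± 0.11, adjusted p = 7.16e-05), and its partner Krt8 (Entrez 16691) held 1756 and 1648 CPM and 2500 and 2918 CPM (0.67 ± 0.10, adjusted p = 0.000179). Krt19 (Entrez 16669), also a keratin of simple epithelium and named after its value was seen, fell, from 1202 and 1196 CPM to 652 and 663 CPM (-0.87 ± 0.14, adjusted p = 0.000304). The hyperproliferation keratin Krt6a held 7.99 and 3.33 CPM and 0.214 and 0.0978 CPM (-5.23 ± 0.58). Basal Krt14 had 148 and 70 counts in the DMSO libraries against 2 and 1 with BRM014, a ratio of 86.98 (95% interval 29.4 to 425, counting error only), and oral Krt76 had 22 and 28 counts and 1 and 0, a ratio of 59.9 (95% interval 10.3 to 2410, counting error only). Krt16, named after its value was seen, had 30 and 5 counts in DMSO and none in BRM014, which makes it at least 13.96-fold lower against a floor of 3 counts over the group. Of 12 tested keratin genes, 2 rose, 7 fell and 3 did not pass, with a median of -0.85 against -0.005 over all genes.

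Tight junction genes, which seal the space between epithelial cells, included a large fall and a large rise within the claudins. Cldn2 (Entrez 12738), a claudin that forms cation-selective pores and marks leaky epithelium, held 876 and 928 CPM in DMSO and 25.2 and 18.1 CPM in BRM014 (-5.40 ± 0.16, adjusted p = 3.37e-10). Cldn1 (Entrez 12737), a sealing claudin, had 2 and 2 counts in the DMSO libraries against 47 and 113 with BRM014, or 2.51 and 3.68 CPM (4.94 ± 0.64, adjusted p = 5.55e-05). Cldn2 was thus nearly lost in both BRM014 libraries while Cldn1 appeared in both. Of 16 tested members, 5 rose, 1 fell and 10 did not pass (median 0.21), a passing share near the 35.9% of all tested genes. The polarity gene Pard6b (1.10 ± 0.13) and the junctional plaque gene Cgn (0.78 ± 0.12) were among the risers. The scaffold gene Tjp1, with 251 and 344 CPM and 359 and 356 CPM, did not pass (0.26 ± 0.12, adjusted p = 0.115), although it did with no filter, with a replicate block within each time and without DMSO 30 h replicate 2 (adjusted p down to 0.00347). Cldn12 and Cgnl1, both named after their values were seen, also rose, with 0.32 ± 0.12 and 0.57 ± 0.14. The Cgnl1 call ended without BRM014 30 h replicate 2 (adjusted p = 0.0629) and that of Cldn12 without DMSO 30 h replicate 1, BRM014 30 h replicate 2 or any of the 4 libraries at 6 h (adjusted p up to 0.251).

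In the adherens junction, both classical cadherins tested in the list rose, and beta-catenin, a catenin that binds them, fell. E-cadherin, Cdh1 (Entrez 12550), held 309 and 416 CPM in DMSO and 524 and 632 CPM in BRM014 (0.67 ± 0.13, adjusted p = 0.00145). N-cadherin, Cdh2 (Entrez 12558), held 104 and 128 CPM and 238 and 243 CPM (1.05 ± 0.13, adjusted p = 3.08e-05). Beta-catenin, Ctnnb1 (Entrez 12387), held 2284 and 2776 CPM and 1083 and 1077 CPM (-1.23 ± 0.10, adjusted p = 1.16e-06). The groups did not overlap in any of these 3 genes. Plakoglobin, Jup, another catenin that was named after its value was seen, fell as well (-1.01, adjusted p = 9.77e-06). The desmosomal genes Ppl (-1.37 ± 0.10) and Pkp1 (-2.82 ± 0.28) fell, whereas alpha-catenin Ctnna1 did not pass (-0.25 ± 0.10, adjusted p = 0.0548). Ctnna1 passed as lower under 5 of 18 alternatives, namely no filter, DESeq2, either replicate block and without DMSO 30 h replicate 1 (adjusted p down to 0.0234). Of 15 tested desmosome and adherens junction genes, 3 rose, 7 fell and 5 did not pass, with a median of -0.25. The remaining riser, Pkp2 (0.33 ± 0.11), lost its call without DMSO 30 h replicate 1 or either BRM014 library at 30 h (adjusted p up to 0.161).

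Among regulators of epithelial and mesenchymal state the changes did not follow 1 direction. Twist2 (Entrez 13345), a mesenchymal transcription factor, held 26.5 and 20.4 CPM and 4.17 and 3.58 CPM (-2.60 ± 0.20). Ehf (Entrez 13661), an epithelial ETS factor, held 11.03 and 20.1 CPM and 0.9095 and 0.978 CPM (-4.03 ± 0.40). Zeb1 (Entrez 21417), which represses E-cadherin, held 25.2 and 28.4 CPM and 44.3 and 39.8 CPM (0.65 ± 0.12, adjusted p = 0.000738). So a mesenchymal and an epithelial factor fell, and another mesenchymal factor rose. Runx1 (1.38 ± 0.14) and Cebpd (1.59 ± 0.33) were the other risers and Cebpb (-1.03 ± 0.15) a further faller. Of 23 tested regulators, 3 rose, 8 fell (5 with only the 4 libraries at 30 h or without BRM014 30 h replicate 2) and 12 did not pass. Genes of luminal and secretory cells were mostly lower, with 7 of 11 fallen, 3 risen and a median of -0.87. The mucin Muc1 (Entrez 17829) held 63.5 and 70.3 CPM and 5.297 and 3.85 CPM (-3.90 ± 0.16), and the surface glycoprotein Cd24a 837 and 827 CPM and 408 and 344 CPM (-1.15 ± 0.10). Xanthine dehydrogenase, Xdh, needed for milk fat secretion, fell too (-2.35 ± 0.22). Its partner in the milk fat globule membrane, the butyrophilin Btn1a1 (Entrez 12231), rose from 0.652 and 0.394 CPM to 7.38 and 9.55 CPM (4.04 ± 0.39), as did Clu (1.07 ± 0.13) and the lipid droplet coat gene Plin2 (0.49 ± 0.11).

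Adhesion to the matrix changed in a similar split manner. Basement membrane genes, which encode the sheet on which epithelium sits, rose in 10 of 16 tested members, fell in 3 and did not pass in 3, with a median of 0.63. The network-forming collagens Col4a1 (Entrez 12826) and Col4a2 (Entrez 12827) held 294 and 301 CPM and 171 and 159.6 CPM in DMSO. In BRM014 they held 564 and 621 CPM and 321 and 378 CPM (1.00 ± 0.09 and 1.08 ± 0.10, adjusted p = 3.02e-06 and 3.07e-06). Lamb1 (Entrez 16777), a laminin beta chain, held 20.7 and 17.8 CPM and 59.01 and 70.4 CPM (1.76 ± 0.13). All 3 were higher in both BRM014 libraries than in either DMSO library. Lamb3, a chain of the laminin found in hemidesmosomes, fell slightly (-0.38 ± 0.09), and agrin, Agrn, fell too (-0.71 ± 0.10). Lama4 was the remaining faller (-2.87 ± 0.75), from 10 and 16 counts to 1 and 3 counts, and its call ended with DESeq2 and without DMSO 30 h replicate 2 or either BRM014 library at 30 h (adjusted p up to 0.115).

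Interstitial matrix genes fell in 10 of 16 tested members, rose in 4 and did not pass in 2 (median -0.86). Col12a1 (Entrez 12816), a collagen that decorates fibrils, held 26.7 and 31.8 CPM in DMSO and 0.696 and 0.489 CPM in BRM014 (-5.67 ± 0.24, adjusted p = 3.12e-09). Sparc (Entrez 20692), a collagen-binding matricellular protein, held 1005 and 997 CPM and 458 and 369 CPM (-1.28 ± 0.11), and thrombospondin 3, Thbs3, fell as well (-1.98 ± 0.15). Fibulin 2, Fbln2 (Entrez 14115), rose from 675 and 553 CPM to 1967 and 2041 CPM (1.71 ± 0.10, adjusted p = 7.53e-08), in company with fibronectin Fn1 (0.80 ± 0.10), Thbs1 (0.91 ± 0.16) and, named after its value was seen, Loxl3 (1.41 ± 0.34). Integrins, the receptors for these matrices, rose in 6 of 16 members and fell in 8 (5 with DESeq2 or without DMSO 30 h replicate 1, and 4 without DMSO 30 h replicate 2 or BRM014 30 h replicate 2). The vitronectin receptor chains Itgav (147 and 173 CPM against 305 and 337 CPM, 1.01 ± 0.11) and Itgb5 (1.02 ± 0.14) rose. The hemidesmosome chain Itgb4 (198 and 206 CPM against 117 and 105 CPM, -0.86 ± 0.10) and Itgb3 (-0.90 ± 0.15), another of the beta partners of Itgav, fell.

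Among proteases and their inhibitors, the metalloproteases Mmp13 and Mmp19 fell and the urokinase receptor rose. Not every metalloprotease fell, since Mmp15, named after its value was seen, rose (0.90, adjusted p = 0.0204). Mmp13 (Entrez 17386), a collagenase, held 25.2 and 38.7 CPM and 0.214 and 0.358 CPM (-6.70 ± 0.32), and Mmp19, another secreted metalloprotease, held 6.14 and 3.54 CPM and 0.268 and 0.0978 CPM (-4.82 ± 0.52). The urokinase receptor Plaur (Entrez 18793) held 182 and 145 CPM and 627 and 807 CPM (2.13 ± 0.15, adjusted p = 3.28e-07). Timp2, an inhibitor of metalloproteases with 1139 and 1281 CPM and 1253 and 1036 CPM, overlapped between the groups (-0.08 ± 0.11, adjusted p = 0.5899). Of 19 tested proteases and inhibitors, 6 rose, 8 fell and 5 did not pass.

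**Figure D3:**
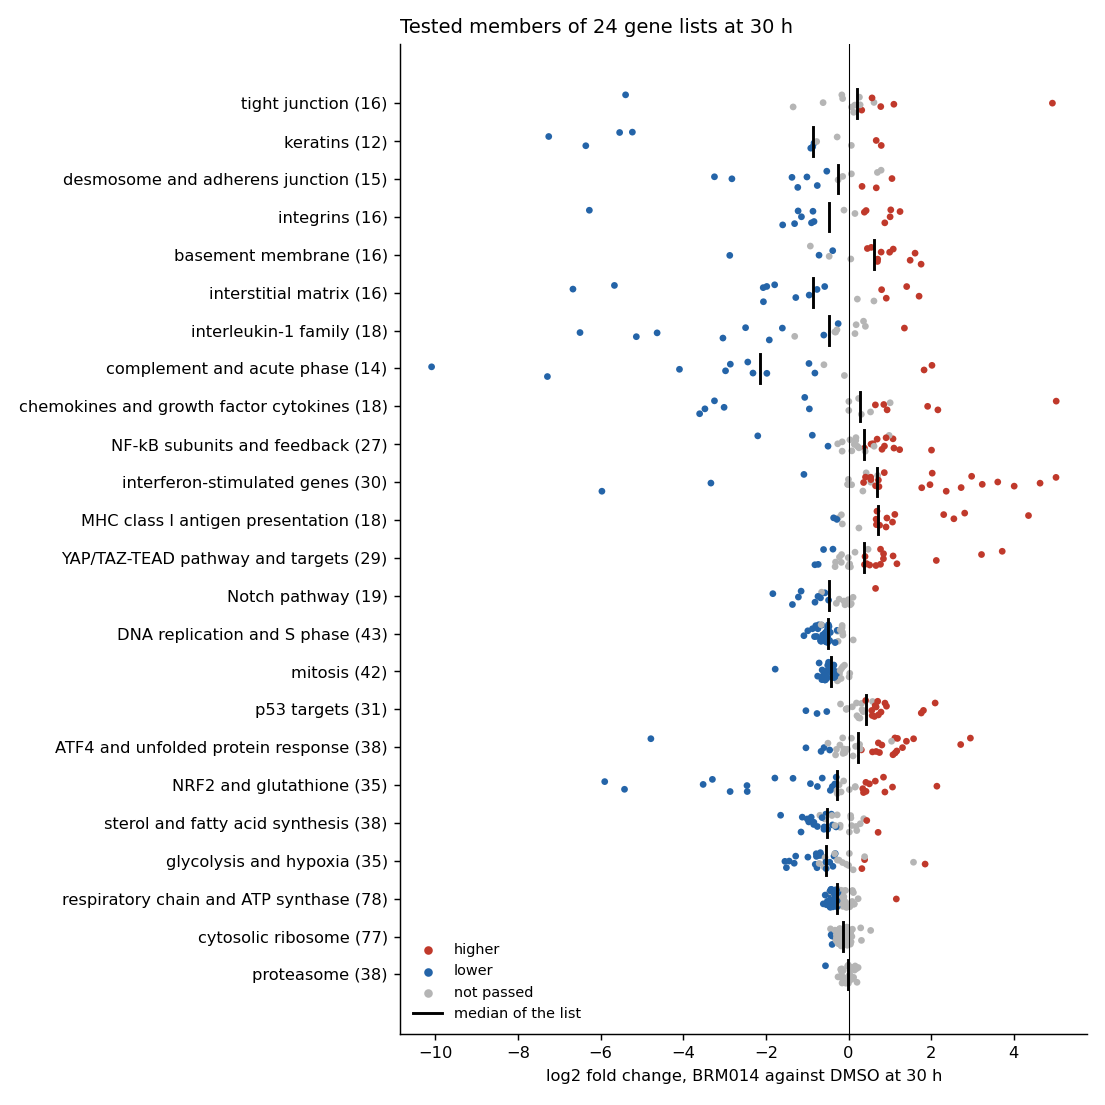
Log2 fold change at 30 h of every tested member of 24 gene lists, with the number of members in brackets. Points are genes, red if they passed as higher, blue if they passed as lower and grey otherwise, and the black bar is the list's median. Complement and acute phase genes have the lowest median of the 24 at -2.14, MHC class I genes the highest at 0.72, and proteasome genes sit close to 0.

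Inflammatory genes moved in both directions. Complement and acute phase genes, products that epithelia and liver release in inflammation, fell in 10 of 14 tested members, rose in 2 and did not pass in 2, with a median of -2.14. Ceruloplasmin, Cp (Entrez 12870), held 459 and 553 CPM in DMSO and 73.8 and 112 CPM in BRM014 (-2.44 ± 0.16, adjusted p = 1.61e-07), and the lipopolysaccharide-binding protein Lbp (Entrez 16803) held 35.3 and 42.8 CPM and 5.03 and 5.67 CPM (-2.86 ± 0.17). Complement component C3, named after its value was seen, held 116 and 137 CPM and 25.6 and 38.3 CPM (-1.98 ± 0.20). The 2 risers were Cd55 (2.07 and 1.88 to 6.37 and 7.59 CPM, 1.83 ± 0.25) and Cd59a (1.41 and 1.79 to 6.58 and 6.55 CPM, 2.02 ± 0.28). Both encode membrane proteins that protect the cell from complement. So 2 surface inhibitors rose while C3 and Cfb, components of the cascade, fell.

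The interleukin-1 family fell in 9 of 18 tested members, rose in 1 and did not pass in 8 (median -0.46). The receptor antagonist Il1rn (Entrez 16181) held 20.3 and 14.8 CPM and 0.749 and 0.326 CPM (-5.14 ± 0.35, adjusted p = 2.05e-07). Il18rap (Entrez 16174), the accessory chain of the interleukin-18 receptor, held 39.5 and 34.3 CPM and 1.498 and 1.47 CPM (-4.63 ± 0.19), and the signalling kinase Irak2 44.95 and 43.5 CPM and 16.3 and 13.1 CPM (-1.60 ± 0.14). The accessory chain of the interleukin-1 receptor, Il1rap, was the riser (6.25 and 5.29 to 15.03 and 14.4 CPM, 1.35 ± 0.19). Of the chemokine and growth factor cytokine list, 6 of 18 were higher and 6 lower (33.3% each, against 16.8% and 19.1% of all tested genes). The monocyte attractants Ccl9 (14.4 and 10.9 to 1.07 and 1.01 CPM, -3.60 ± 0.25) and Ccl7 (-3.01 ± 0.26) and the neutrophil attractant Cxcl5 (-1.06 ± 0.12) fell. Cxcl10, an interferon-inducible chemokine, rose from 0.707 and 1.44 CPM to 31.6 and 40.6 CPM (5.03 ± 0.37), with Cx3cl1 (0.85 ± 0.15) and the neutrophil attractant Cxcl1 (0.65 ± 0.15). So of the 2 neutrophil attractants named, 1 fell and 1 rose.

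NF-kB subunits and their feedback inhibitors rose in 11 of 27 tested members and fell in 3 (median 0.39). The inhibitor Nfkbia (Entrez 18035), itself an NF-kB target, held 67.996 and 74.03 CPM and 145 and 159.8 CPM (1.10 ± 0.12, adjusted p = 1.31e-05). Relb (Entrez 19698), a subunit of the non-canonical pathway, held 44.2 and 32.99 CPM and 85.9 and 95.5 CPM (1.24 ± 0.14, adjusted p = 1.45e-05), and the adaptor Traf2 rose too (0.81 ± 0.09). The canonical subunit Rela, with 192 and 181 CPM and 202 and 209 CPM, did not pass (0.14 ± 0.10, adjusted p = 0.299). The 3 fallers were the tumour necrosis factor receptors Tnfrsf1b (66.2 and 68.3 to 15.7 and 13.8 CPM, -2.20 ± 0.13) and Tnfrsf1a (-0.50 ± 0.09) and the kinase scaffold Ikbkg (-0.88 ± 0.14).

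Interferon-stimulated genes rose in 19 of 30 tested members (10 with a filter of at least 1 CPM in 4 libraries, which tests fewer members), fell in 3 and did not pass in 8, with a median of 0.68. These genes answer interferons through STAT factors and IRF factors that bind the repeated GAAA core of their promoters. Irf1 (Entrez 16362), 1 of those factors, held 45.1 and 51.8 CPM in DMSO and 145 and 186 CPM in BRM014 (1.77 ± 0.15, adjusted p = 1.11e-06). Gbp2 (Entrez 14469), a guanylate-binding protein with close relatives, held 1.58 and 0.7001 CPM and 17.4 and 18.4 CPM (4.01 ± 0.29, adjusted p = 3.70e-07), and Parp14 5.44 and 3.89 CPM and 17.9 and 18.5 CPM (1.97 ± 0.21). These 3 were above every DMSO library in both BRM014 libraries. The 3 fallers were Mx1, Ifitm3 and Irgm1. Irgm1 (Entrez 15944), an immunity-related GTPase, held 78.3 and 75.1 CPM and 41.3 and 31.7 CPM (-1.08 ± 0.13, adjusted p = 2.29e-05), while its paralog Irgm2, named after its value was seen, rose from 0.815 and 0.875 CPM to 5.404 and 3.49 CPM (2.36 ± 0.35, adjusted p = 0.000178). Mx1 had 57 and 62 counts in the DMSO libraries against 1 and 1 with BRM014, a ratio of 71.2 (95% interval 19.3 to 595, counting error only), and Ifitm3 held 2.94 and 3.28 CPM and 0.321 and 0.293 CPM (-3.33 ± 0.43). The kinase Eif2ak2, with 70.01 and 82.96 CPM and 77.2 and 74.8 CPM, overlapped between the groups (-0.01 ± 0.11, adjusted p = 0.9495). Of the receptor chains, Ifnar1 of the type I receptor rose (0.38 ± 0.10) and Ifnar2 did not pass (-0.25 ± 0.11, adjusted p = 0.106), and of the type II receptor Ifngr1 (-0.69 ± 0.10) and Ifngr2 (-0.32 ± 0.10) fell. The last gene lost its call without DMSO 30 h replicate 1 or either BRM014 library at 30 h (adjusted p up to 0.1096), and Ifnar2 passed as lower without DMSO 30 h replicate 2 (adjusted p = 0.0444). Ifnar2 and Ifngr2 were named after their values were seen.

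Promoters of 1 strong riser and of the paralogs that went opposite ways are shown because all 3 hold the same response element. The sequences are the 200 bases before the annotated start in RefSeq GRCm38.p6, 5′ to 3′ on the gene's strand, with the element GAAA, any 2 bases, GAAA, in either orientation, in capitals. Gbp2 lies on the plus strand (chr3:142620463-142620662), Irgm2 on the plus strand (chr11:58214777-58214976) and Irgm1 on the minus strand (chr11:48871421-48871620).
Gbp2: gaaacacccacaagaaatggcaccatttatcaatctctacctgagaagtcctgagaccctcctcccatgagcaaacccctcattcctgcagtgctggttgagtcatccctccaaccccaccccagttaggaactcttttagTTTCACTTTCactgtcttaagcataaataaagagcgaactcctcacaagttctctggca
Irgm2: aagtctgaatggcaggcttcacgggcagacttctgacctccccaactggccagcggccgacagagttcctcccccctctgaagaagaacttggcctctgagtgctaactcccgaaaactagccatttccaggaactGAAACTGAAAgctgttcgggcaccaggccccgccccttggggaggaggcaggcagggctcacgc
Irgm1: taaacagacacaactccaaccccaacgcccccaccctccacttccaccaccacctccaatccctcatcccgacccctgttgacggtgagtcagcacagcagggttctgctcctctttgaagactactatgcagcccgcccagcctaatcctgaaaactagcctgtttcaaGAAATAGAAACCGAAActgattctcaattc
In windows from 250 bases before to 50 after the start, searched on both strands, the element was found in 943 of 27025 RefSeq promoters (3.49%) and in 259 of the 9420 tested genes that had a window (2.75%). Among list members it was found in 10 of 16 higher genes, in both lower genes with a window (Irgm1 and Ifitm3) and in 2 of 5 that did not pass. The element was therefore present in members of each kind, and a match is a description of these letters, not of a bound site. The genes were shown in part for how they moved, so their elements are not evidence on the list.

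MHC class I genes, which load and display peptides on the cell surface, rose in 12 of 18 tested members, fell in 2 and did not pass in 4 (median 0.72). The peptide transporter subunit Tap2 (Entrez 21355) had 15 and 7 counts in the DMSO libraries against 182 and 383 with BRM014, or 9.74 and 12.5 CPM (4.36 ± 0.37, adjusted p = 1.27e-06). Its partner Tap1, named after its value was seen, held 0.761 and 0.613 CPM and 5.72 and 4.01 CPM (2.81 ± 0.39). The classical heavy chains H2-K1 (35.9 and 30.5 to 61.5 and 62.96 CPM, 0.91 ± 0.11) and H2-D1 (58.2 and 55.2 to 92.02 and 98.9 CPM, 0.75 ± 0.10) rose, and reads of these related genes may be shared. The light chain B2m, named after its value was seen, did not pass (287 and 266 CPM against 260.2 and 205 CPM, -0.25 ± 0.11, adjusted p = 0.0966), though it passed as lower with either replicate block and without BRM014 30 h replicate 1 (adjusted p down to 0.0151). The 2 fallers are general chaperones of the endoplasmic reticulum, Pdia3 (-0.36 ± 0.10) and Canx (-0.28 ± 0.09), and both calls ended without BRM014 30 h replicate 2, that of Pdia3 also without DMSO 30 h replicate 1 and that of Canx also without DMSO 30 h replicate 2 or BRM014 replicate 1 at either time (adjusted p up to 0.1303 and 0.143).

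Immediate early and AP-1 genes, which report recent signalling, rose in 13 of 25 tested members and fell in 6 (median 0.44). Atf3 (Entrez 11910) held 11.6 and 16.5 CPM and 58.96 and 68.4 CPM (2.17 ± 0.16, adjusted p = 3.76e-07), and the orphan receptor Nr4a1 7.56 and 4.38 CPM and 24.8 and 26.7 CPM (2.13 ± 0.23). Fos (Entrez 14281), the classical partner of the JUN proteins, held 40.5 and 28.3 CPM and 9.42 and 6.58 CPM (-2.12 ± 0.21, adjusted p = 5.50e-06). Atf3 and Fos thus moved in opposite directions with no overlap. The AP-1 element TGANTCA, searched on both strands of the same 300-base windows, was found in 7.93% of all RefSeq promoters and in 5.0% of tested genes. It was found in 34 of 425 genes that rose at least 2-fold (8.0%) and in 69 of 578 that fell at least 2-fold (11.9%). Over all genes that passed, whatever the fold, it was found in 5.34% of 1593 that rose and 7.03% of 1765 that fell.

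Of 29 tested genes of the YAP/TAZ-TEAD pathway, which reads cell shape and stiffness, 14 rose and 4 fell (median 0.39). After Ankrd1, the risers with the smallest p were Gadd45b (24.8 and 27.4 to 90.95 and 136 CPM, 2.12 ± 0.17) and the matricellular target Cyr61 (216 and 204 to 441 and 505 CPM, 1.17 ± 0.15). The fallers were the TEAD factor Tead3 (-0.81 ± 0.16), the LIM protein Ajuba (-0.73 ± 0.09), Arhgef17 (-0.60 ± 0.10) and, named after its value was seen, Nuak2 (-0.38 ± 0.14). Among the 11 members that did not pass were Axl (-0.22, adjusted p = 0.0795) and, named after its value was seen, Ctgf (-0.32, adjusted p = 0.129). Nuak2 lost its call with RLE scaling, with DESeq2 and without DMSO 30 h replicate 1, BRM014 30 h replicate 1 or any library at 6 h (adjusted p up to 0.252). Actin and contractile genes included 9 risers among 26 (5 without BRM014 30 h replicate 2) and 3 fallers. The tropomyosin Tpm1 (872 and 803 to 1481 and 1386 CPM, 0.78 ± 0.10) rose. Fhl1 fell (6.41 and 9.41 to 1.44 and 1.56 CPM, -2.39 ± 0.31), and the other fallers, Flna (-0.44 ± 0.10) and Tpm4 (-0.44 ± 0.10), lost their calls when BRM014 30 h replicate 1 and BRM014 30 h replicate 2 respectively were left out (adjusted p = 0.0564 and 0.0559).

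TGF-beta, BMP and ID genes fell in 12 of 38 tested members and rose in 5 (median -0.13). Id2 (Entrez 15902), an inhibitor of basic helix-loop-helix factors, held 251 and 274 CPM and 48.9 and 42.7 CPM (-2.52 ± 0.13, adjusted p = 1.81e-08). Id1 (Entrez 15901) held 232 and 223 CPM and 89.9 and 103 CPM (-1.24 ± 0.10), and the type I receptor Tgfbr1 82.997 and 93.8 CPM and 32.4 and 31.6 CPM (-1.47 ± 0.12). In these 3 genes both BRM014 libraries were below both DMSO libraries. The risers were the ubiquitin ligase Smurf1 (1.08 ± 0.15), Smad3 (0.48 ± 0.10), the ligand Tgfb3 (0.87 ± 0.20) and, named after their values were seen, Tgif1 (0.55 ± 0.17) and Bmpr2 (0.80 ± 0.21). Tgif1 lost its call without DMSO 30 h replicate 2 or BRM014 30 h replicate 1 and Bmpr2 without BRM014 30 h replicate 2 (adjusted p up to 0.168 and 0.0689). Notch genes fell in 9 of 19 tested members and rose in 1 (median -0.48). The ligand Jag1 (25.1 and 30.6 to 12.5 and 12.7 CPM, -1.15 ± 0.13), the DNA-binding partner Rbpj (37.6 and 38.02 to 20.6 and 22.4 CPM, -0.81 ± 0.11) and the target Hes1 (93.2 and 74.9 to 37.1 and 28.8 CPM, -1.36 ± 0.16) all fell. The riser, Dtx4 (0.65 ± 0.17), lost its call without BRM014 30 h replicate 1 (adjusted p = 0.0531).

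Receptors and ligands of the Wnt pathway moved both ways, with 5 of 26 tested members higher and 7 lower, shares near the 16.8% and 19.1% of all tested genes. The receptor Fzd2 rose (30.8 and 25.9 to 72.6 and 87.4 CPM, 1.5 ± 0.14) and Fzd7 fell (32.9 and 34.96 to 11.3 and 12.8 CPM, -1.49 ± 0.14). The ligand Wnt7b rose (0.53 ± 0.12) and Wnt7a fell (-1.83 ± 0.31), as did Porcn, the enzyme that lipidates Wnt ligands (-1.15 ± 0.18). Fzd5 (0.60 ± 0.13) and, named after their values were seen, Wnt9a (1.68 ± 0.42) and Apc (0.40 ± 0.13) were the other risers. Wnt9a lost its call without DMSO 30 h replicate 2 and Apc without DMSO 30 h replicate 1 or BRM014 30 h replicate 2 (adjusted p up to 0.0728 and 0.194). In the EGF receptor and ERK list, 9 of 30 rose and 7 fell (3 when DMSO 30 h replicate 1 was left out and 2 when BRM014 30 h replicate 2 was). The feedback inhibitor Errfi1 had the smallest p of the risers (34.6 and 26.4 to 99.6 and 88.4 CPM, 1.63 ± 0.18), followed by the receptor Egfr itself (41.2 and 44.6 to 68.2 and 66.9 CPM, 0.65 ± 0.13). The ERK phosphatase Dusp4 fell (-0.72 ± 0.13).

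Genes of proliferation were largely lower. Of 43 tested DNA replication and S phase genes, 34 fell, none rose and 9 did not pass, with a median of -0.51, and of 42 mitosis genes 32 fell, none rose and 10 did not pass (-0.42). In each list 1 gene fell at least 2-fold. The licensing factor Cdc6 (Entrez 23834) held 71.7 and 77.8 CPM in DMSO and 35.8 and 35.1 CPM in BRM014 (-1.08 ± 0.10), and the phosphatase Cdc25b (Entrez 12531), which starts mitosis, 133 and 126 CPM and 34.2 and 41.5 CPM (-1.77 ± 0.12, adjusted p = 1.61e-07). Top2a, with 605 and 625 CPM and 578 and 509.6 CPM, did not pass (-0.18 ± 0.09, adjusted p = 0.145), nor did the replication-coupled methylation reader Uhrf1 (-0.15 ± 0.10). The E2F word TTTNGCGC, searched on both strands, was found in 8 of 29 lower S phase genes with a window, in 1 of 6 that did not pass and in 2.62% of all tested genes.

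Regulators of the G1 phase did not share that direction. Cdkn2a (Entrez 12578), which encodes INK4A and ARF, held 37.6 and 30.6 CPM and 85.6 and 96.1 CPM (1.42 ± 0.12, adjusted p = 1.23e-06), and its neighbour on chromosome 4, the CDK inhibitor Cdkn2b (Entrez 12579), held 60.6 and 49.1 CPM and 125 and 114 CPM (1.12 ± 0.13, adjusted p = 1.86e-05). Another inhibitor of the same family, Cdkn2c (Entrez 12580), held 67.3 and 61.3 CPM and 31.1 and 28.5 CPM (-1.11 ± 0.11, adjusted p = 3.99e-06). The neighbours on chromosome 4 were thus higher in both BRM014 libraries and Cdkn2c lower in both. Ccne2 (-0.96 ± 0.15) and the repressor E2f8 (-0.98 ± 0.10) fell, whereas Ccnd2 rose, as given above. Of 27 tested cyclins, CDK inhibitors and E2F genes, 6 rose, 9 fell (5 without BRM014 30 h replicate 2) and 12 did not pass (median -0.17).

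Targets of p53 rose in 15 of 31 tested members and fell in 3 (median 0.42). Gadd45a (11.4 and 13.9 to 44.3 and 44.9 CPM, 1.81 ± 0.14), a growth arrest gene, Bbc3 (20.5 and 15.9 to 61.4 and 61.5 CPM, 1.76 ± 0.18), which encodes the death promoter PUMA, and the death receptor Tnfrsf10b (0.88 ± 0.12) rose. The fallers were Ddb2 (-1.03 ± 0.15), Perp (-0.53 ± 0.11) and Cdkn1a, which encodes the CDK inhibitor p21. Cdkn1a held 231 and 187 CPM and 147 and 99.7 CPM (-0.76 ± 0.23, adjusted p = 0.01998), and its call ended with DESeq2 and without DMSO 30 h replicate 1 or BRM014 30 h replicate 2 (adjusted p up to 0.211). In the BCL2 and caspase list, 6 of 22 rose and 6 fell. The survival gene Bcl2 (17.8 and 18.6 to 36.1 and 38.3 CPM, 1.03 ± 0.13) rose beside Bbc3, while the death promoter Bmf fell (98.4 and 114 to 31.03 and 23.9 CPM, -1.96 ± 0.16). Bax overlapped between the groups (419 and 359.5 CPM against 382 and 366 CPM, -0.06 ± 0.11, adjusted p = 0.722).

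In the ATF4 and unfolded protein response list, 16 of 38 tested members rose, 5 fell and 17 did not pass (median 0.22). ATF4 is a transcription factor made when amino acids are short or proteins misfold, and it acts on amino acid synthesis and uptake. The proline synthesis enzymes Pycr1 and Aldh18a1 rose together. Pycr1 (Entrez 209027) held 14.9 and 12.8 CPM in DMSO and 89.2 and 92.6 CPM in BRM014 (2.71 ± 0.12, adjusted p = 3.48e-09), and Aldh18a1 (Entrez 56454) 148 and 138 CPM and 327 and 381 CPM (1.31 ± 0.10, adjusted p = 5.17e-07). The glutathione-degrading enzyme Chac1 (Entrez 69065) held 13.9 and 19.6 CPM and 95.4 and 165 CPM (2.95 ± 0.22). The amino acid transporters Slc7a5 (184 and 196 to 386 and 441 CPM, 1.12 ± 0.10) and Slc7a1 (147 and 173 to 335 and 384 CPM, 1.17 ± 0.11) rose too. Nupr1 (Entrez 56312), a stress-induced nuclear protein, was the exception at the other end, with 51.5 and 47.2 CPM and 2.14 and 1.53 CPM (-4.78 ± 0.19, adjusted p = 2.21e-09). The other fallers were Cebpb (-1.03 ± 0.15), Atf6 (-0.66 ± 0.11) and, named after their values were seen, the serine synthesis gene Psat1 (-0.59 ± 0.10) and the chaperone cofactor Dnajc3 (-0.46 ± 0.10). The main chaperone of the endoplasmic reticulum, Hspa5, did not pass (984 and 732 CPM against 963 and 969 CPM, 0.17 ± 0.13, adjusted p = 0.325) but rose without DMSO 30 h replicate 1 (adjusted p = 0.0217).

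The promoters of Pycr1, Chac1 and Nupr1 are shown because they share a C/EBP-ATF element although Nupr1 moved against the other two. They are again the 200 bases before the RefSeq start in GRCm38.p6, on the gene's strand, with the element TGATGNAA, in either orientation, in capitals. Pycr1 lies on the minus strand (chr11:120643749-120643948), Chac1 on the plus strand (chr2:119351042-119351241) and Nupr1 on the minus strand (chr7:126625471-126625670).
Pycr1: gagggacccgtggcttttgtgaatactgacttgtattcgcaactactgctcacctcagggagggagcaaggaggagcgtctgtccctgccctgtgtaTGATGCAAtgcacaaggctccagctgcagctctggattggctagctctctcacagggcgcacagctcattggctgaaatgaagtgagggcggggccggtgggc
Chac1: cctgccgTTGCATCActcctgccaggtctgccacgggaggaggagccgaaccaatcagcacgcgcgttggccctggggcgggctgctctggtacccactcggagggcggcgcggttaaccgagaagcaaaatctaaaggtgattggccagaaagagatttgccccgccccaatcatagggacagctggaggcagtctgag
Nupr1: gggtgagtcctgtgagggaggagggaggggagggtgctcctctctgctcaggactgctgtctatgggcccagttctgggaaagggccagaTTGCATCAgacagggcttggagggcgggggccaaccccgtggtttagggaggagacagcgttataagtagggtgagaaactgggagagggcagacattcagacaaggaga
TGATGNAA, searched on both strands of the 300-base windows, was found in 4.06% of RefSeq promoters, in 2.20% of tested genes and in 7 of 33 members of the list. These were 4 of 15 that rose, 1 of 4 that fell and 2 of 14 that did not pass. In all 3 promoters shown the letters were the same, TGATGCAA or its reverse complement. The promoters were chosen for holding it, and nothing about the factors that bind it was tested.

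Genes of the oxidative stress factor NRF2 and of glutathione metabolism rose in 10 of 35 tested members (6 without BRM014 30 h replicate 2) and fell in 16, with a median of -0.29. Heme oxygenase, Hmox1 (Entrez 15368), held 124 and 129 CPM in DMSO and 436 and 676 CPM in BRM014 (2.14 ± 0.16, adjusted p = 5.11e-07), and sulfiredoxin, Srxn1, 122 and 117 CPM and 234 and 265 CPM (1.07 ± 0.09). The epoxide hydrolase Ephx1 (Entrez 13849) held 285 and 338 CPM and 47.2 and 38.6 CPM (-2.87 ± 0.12, adjusted p = 3.35e-09), and the transferase Gsto1 1022 and 931 CPM and 298 and 270.4 CPM (-1.78 ± 0.11). The 2 antioxidant enzymes named were thus higher and the 2 detoxifying enzymes lower. Gsta1 fell as well (-3.52 ± 0.16), but it has near-identical relatives. Heat shock chaperones fell in 10 of 29 (3 when DMSO 30 h replicate 1 was left out and 5 when BRM014 30 h replicate 2 was) and rose in 5, among them the small heat shock proteins Cryab (79.3 and 73.1 to 188 and 294 CPM, 1.66 ± 0.18) and Hspb1 (2.30 ± 0.25). The other risers were Dnajb4 (1.09 ± 0.14) and, named after their values were seen, Hsp90aa1 (0.40 ± 0.09) and Hspa2 (0.49 ± 0.17), the last with a call that ended with DESeq2 and without either DMSO library at 30 h, BRM014 30 h replicate 2 or either BRM014 library at 6 h (adjusted p up to 0.207).

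Lipid synthesis genes fell in 21 of 38 tested members and rose in 2, with a median of -0.53. With DMSO 30 h replicate 2 left out the lower count was 12, and with BRM014 30 h replicate 1 left out 12. Ebp (Entrez 13595), a late enzyme of cholesterol synthesis, held 195 and 217 CPM and 93.3 and 96.5 CPM (-1.12 ± 0.09, adjusted p = 1.27e-06). The fatty acid desaturase Fads1 (Entrez 76267) held 401 and 488 CPM and 197 and 204 CPM (-1.15 ± 0.10). Of the transcription factors in the list, Srebf2 overlapped between the groups (402 and 489 CPM against 445 and 568 CPM, 0.18 ± 0.12, adjusted p = 0.2599). Srebf1, named after its value was seen, fell (-0.58, adjusted p = 0.00292). The risers were Pmvk (0.72 ± 0.12) and Dhcr7 (0.44 ± 0.13), the latter with a call that ended without DMSO 30 h replicate 1 or either BRM014 library at 30 h (adjusted p up to 0.169).

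Glycolysis and hypoxia genes fell in 19 of 35 tested members and rose in 3 (median -0.54). Lactate dehydrogenase A, Ldha (Entrez 16828), held 2070 and 1908 CPM and 799.8 and 840.3 CPM (-1.28 ± 0.09, adjusted p = 1.94e-07), and the prolyl hydroxylase P4ha2 46.7 and 37.8 CPM and 13.9 and 15.8 CPM (-1.50 ± 0.15). Pyruvate kinase, Pkm, overlapped between the groups (4816 and 4536 CPM against 4335 and 5030 CPM, 0.00 ± 0.10, adjusted p = 0.989). Of the risers, Pfkfb3, which makes an activator of glycolysis, rose (13.9 and 16.3 to 51.4 and 57.9 CPM, 1.85 ± 0.13). The other risers, Slc16a1 (0.32 ± 0.11) and Hk2 (0.39 ± 0.14), lost their calls without DMSO 30 h replicate 1 or BRM014 30 h replicate 2, without either BRM014 library at 6 h and with only the 4 libraries at 30 h, and Hk2 also without DMSO 30 h replicate 2 (adjusted p up to 0.293 and 0.399). Nuclear genes of the respiratory chain and ATP synthase fell in 38 of 78, with a median of -0.28 and 1 riser, Atp5s (1.16 ± 0.19). With DMSO 30 h replicate 1 left out that count was 19, and with BRM014 30 h replicate 2 left out 13. Examples are Sdha (407 and 414 to 303 and 298 CPM, -0.45 ± 0.09) and Ndufv3 (85.6 and 89.3 to 60.5 and 60.4 CPM, -0.53 ± 0.10).

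Few genes of protein synthesis and breakdown passed. Of 77 tested cytosolic ribosomal protein genes, 74 did not pass and 3 fell, and of 38 proteasome genes 37 did not pass and 1 fell, shares well under the 35.9% of all genes. The ribosomal list still leaned lower, with 62 members below 0, 15 above and a median of -0.14, against -0.005 over all genes. The proteasome median was -0.002. Rpl4, shown next, was among the 15 above 0. Rpl4 held 2219 and 2126 CPM and 2259 and 2228 CPM (0.05 ± 0.09), and the proteasome gene Psmd2 690.4 and 691 CPM and 696 and 714 CPM (0.03 ± 0.08). Among the fallers, Rpl39, Rpl7a and Psmd10 (-0.40 ± 0.13, -0.40 ± 0.14 and -0.56 ± 0.13) lost their calls without BRM014 30 h replicate 2 (adjusted p up to 0.247, 0.3501 and 0.0566). The calls of Rpl39 and Rpl7a also ended without DMSO 30 h replicate 1, and that of Rpl7a also without either BRM014 library at 6 h. Ribosome biogenesis genes of the nucleolus rose in 11 of 45 and fell in none, with Utp20 at 113 and 130.2 CPM and 169 and 200.2 CPM (0.60 ± 0.11). With DMSO 30 h replicate 2 left out that count was 6, and with BRM014 30 h replicate 2 left out 3.

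The 30 h effect was then set against the 6 h effect, which rests on the other 4 libraries. At 6 h, 2815 genes passed (23.8%), and the difference between the effects passed in 766 genes (6.47%), more positive at 30 h in 460 (3.89%) and more negative in 306 (2.59%). Of the 2258 genes lower at 30 h, 1148 were also lower at 6 h, 1094 had not passed at 6 h and 16 had been higher. Of the 1990 genes higher at 30 h, 715 were also higher at 6 h, 1223 had not passed and 52 had been lower. In all 68 genes that passed in opposite directions, the difference passed too.

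Fewer basement membrane genes passed as higher at 6 h than the 10 of 16 at 30 h. At 6 h 2 of 16 passed as higher and 5 as lower (9.35% and 14.4% of all tested genes), with a median of -0.19, and the difference passed as more positive at 30 h in 10 of 16 and as more negative in none. Lamb1 was 0.04 ± 0.12 at 6 h, with a difference of 1.72 ± 0.17 (adjusted p = 0.000109), and Col4a1 was -0.03 ± 0.09 at 6 h (difference 1.02 ± 0.13, adjusted p = 0.000613). The difference was also more positive in 12 of 29 YAP/TAZ-TEAD genes and 15 of 38 ATF4 and unfolded protein response genes, with none more negative in either list. Ankrd1 went from 1.34 ± 0.12 at 6 h to its larger value at 30 h (difference 1.88 ± 0.17, adjusted p = 5.95e-05), the NRF2 list's Hmox1 from -0.01 ± 0.16 (difference 2.15 ± 0.22), and the interferon list's Irf1 from 0.32 ± 0.15 (difference 1.46 ± 0.21). Sterol and fatty acid genes moved the other way, with the difference more negative in 8 of 38 and more positive in none. In that list, Ebp was -0.55 ± 0.09 at 6 h (difference -0.57 ± 0.13, adjusted p = 0.0207), a call that ended without DMSO 6 h replicate 2 or any of the 4 BRM014 libraries. The YAP/TAZ-TEAD count was 5 without DMSO 6 h replicate 1, BRM014 6 h replicate 2 or BRM014 30 h replicate 2 and 6 without BRM014 6 h replicate 1. The ATF4 count was 5 without DMSO 6 h replicate 1 or BRM014 6 h replicate 2, 9 without BRM014 6 h replicate 1 and 7 without BRM014 30 h replicate 2. The sterol count was 23 without DMSO 30 h replicate 1, 4 without DMSO 30 h replicate 2, 3 without DMSO 6 h replicate 1 or BRM014 30 h replicate 1, and 2 without DMSO 6 h replicate 2 or either BRM014 library at 6 h.

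Some genes crossed from one side to the other. The collagen receptor chain Itga2 was -1.48 ± 0.12 at 6 h and 0.88 ± 0.12 at 30 h, from 22.4 and 26.4 CPM in DMSO to 43.7 and 46.3 CPM in BRM014 (difference 2.36 ± 0.17, adjusted p = 1.38e-05). The actin crosslinker Flnc was -0.94 ± 0.16 and then 1.61 ± 0.17 (difference 2.55 ± 0.23, adjusted p = 5.56e-05). Both were lower at 6 h and higher at 30 h. Pdk1, a kinase that shuts pyruvate out of mitochondria, was 0.67 ± 0.15 at 6 h and -1.31 ± 0.13 at 30 h, where it held 47.7 and 53.03 CPM in DMSO and 22.4 and 18.3 CPM in BRM014 (difference -1.99 ± 0.20, adjusted p = 0.000109). Other genes were lower at 30 h by more than at 6 h. S100a4 (Entrez 20198), a calcium-binding protein linked to motility, was -0.93 ± 0.10 at 6 h and -3.30 ± 0.11 at 30 h, where it held 1029 and 969 CPM and 112 and 91.2 CPM (difference -2.37 ± 0.15, adjusted p = 3.18e-06). Id2 was -0.70 ± 0.12 at 6 h (difference -1.82 ± 0.17, adjusted p = 8.35e-05), and Fos, which did not pass at 6 h, 0.05 ± 0.22 (difference -2.17 ± 0.30, adjusted p = 0.0009804). The monocyte attractant Ccl2 (Entrez 20296) was lower at 30 h by less than at 6 h, with -3.53 ± 0.18 at 6 h and -0.95 ± 0.16 at 30 h. At 30 h Ccl2 held 602 and 489 CPM in DMSO and 309.9 and 256 CPM in BRM014 (difference 2.58 ± 0.23, adjusted p = 3.92e-05).

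**Figure D4:**
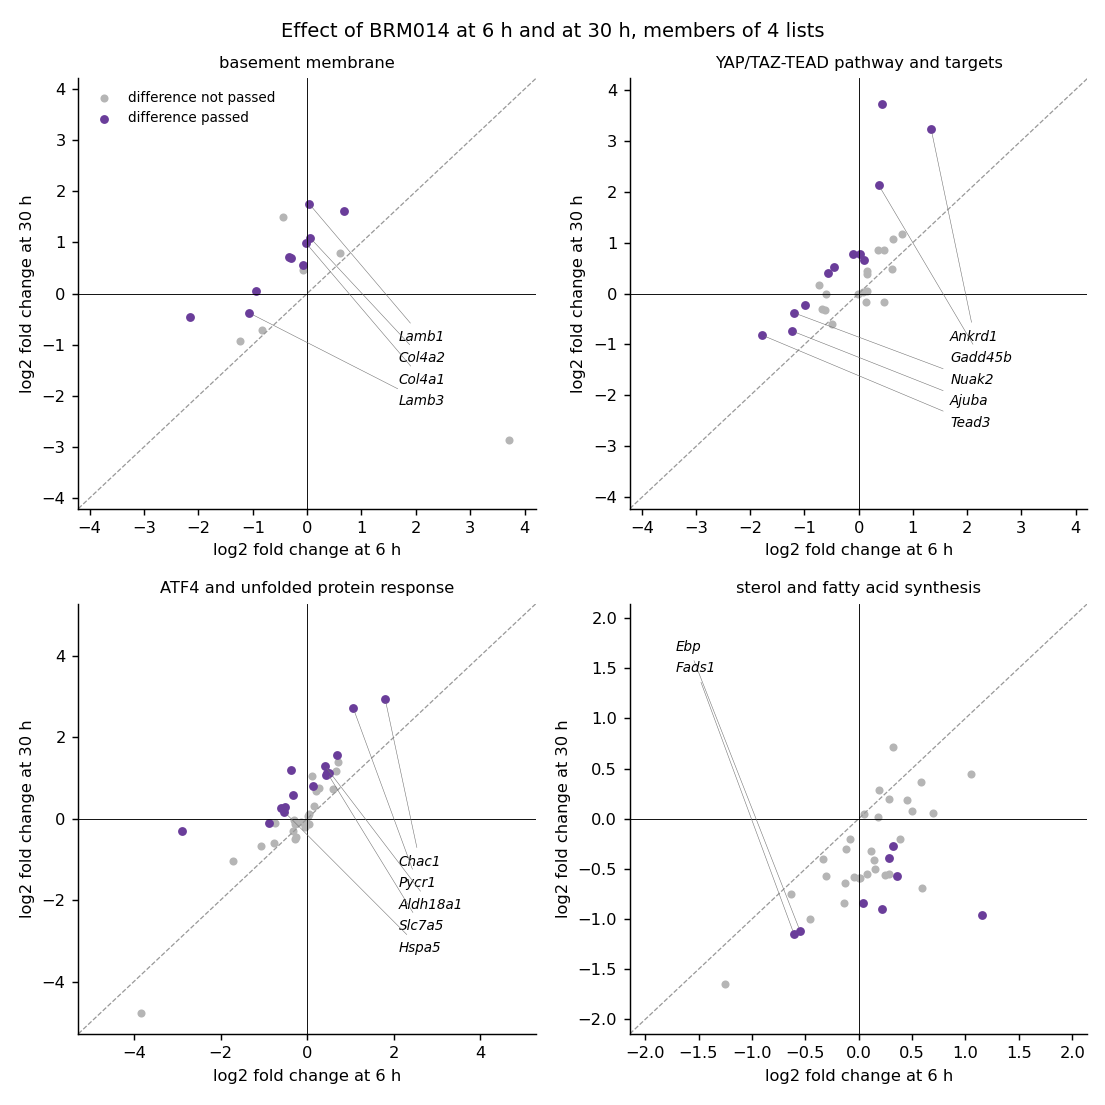
Log2 fold change of BRM014 against DMSO at 6 h (x axis) and at 30 h (y axis) for the tested members of 4 lists, with the dashed line where both are equal. Purple points are genes whose difference between the times passed, and up to 6 per list carry names, chosen from the genes given in the text. Purple points lie above the line in the first 3 panels (10, 12 and 15 genes) and below it among the 8 sterol and fatty acid genes.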

How the data were processed

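Total RNA of NMuMG cells was made into stranded libraries and sequenced on a NovaSeq 6000 as single 50-base reads, per the labels' protocols. The deposited values are raw read counts per gene for 8 libraries, which the authors made with Subread, featureCounts and SAMtools 0.1.19 on mm9, per the submitters' processing notes; the strand setting and other counting options are not given in the sources used here. Of 21240 genes, 11835 passed edgeR's filterByExpr. Counts were scaled by TMM and fitted with edgeR 4.0.16 (quasi-likelihood, limma 3.58.1, R 4.3.3) over all 4 groups, which share 1 estimate of spread, and the contrasts at 30 h, at 6 h and their difference were adjusted by Benjamini-Hochberg over all tested genes at a threshold of 0.05. On counts simulated for these libraries, the fit recovered 44 of 50 genes set 2-fold lower and 47 of 50 set 2-fold higher. It made 12 false calls in 11470 unchanged genes. Whether these figures hold for the real counts, where 4248 genes passed at 30 h, was not tested.

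The 53 gene lists held 2519 entries, of which 2506 were in the table and 1714 were tested; no list was tested as a set. Named genes are Smarca4 and Smarca2; among passing genes without overlap whose mean log2 CPM was 2 or more, the 12 with the highest and the 12 with the lowest log2 fold change; in each list the 3 risers and 3 fallers with the smallest p and the member with the highest mean CPM that did not pass; and the 5 highest and 5 lowest differences between the times. Some genes that this rule names are not reported here. Members and lists were chosen with earlier results of these data known. Intervals and floors cover counting error only. Promoters came from RefSeq windows of GRCm38.p6 matched by Entrez identifier (9420 of 11835 tested genes), and none of the files' mm9 coordinates was used. Alternatives were RLE scaling, library totals, no filter, a filter of at least 1 CPM in 4 libraries, DESeq2 1.42.0, limma-voom, the 4 libraries at 30 h alone, counts thinned to equal depth, a replicate block, and each of the 8 libraries left out.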

Additional observations from a re-analysis of the deposited data

Results flagged for a closer look

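The effect of BRM014 differed between the times in 97 of the genes named in the text, by the test of the difference itself (edgeR with Benjamini-Hochberg adjustment). Srebf1, Jup, Mmp15, Ctgf and Axl were not looked at for this. Each value in brackets is the log2 fold change at 30 h minus that at 6 h, so that a positive value stands for a higher effect at 30 h. Across all tested genes the difference passed in 6.47%.

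Genes lower at 6 h and higher at 30 h were Flnc (2.55), Itga2 (2.36) and Hk2 (1.36). The gene higher at 6 h and lower at 30 h was Pdk1 (-1.99). Genes that passed as higher at 30 h and had not passed at 6 h were Gbp2 (2.78), Hmox1 (2.15), Parp14 (2.14), Gadd45b (1.75), Lamb1 (1.72), Errfi1 (1.62), Cd55 (1.51) and Nr4a1 (1.51). Passing as higher at 30 h alone were also Irf1 (1.46), Cryab (1.28), Col4a1 (1.02), Col4a2 (1.02), Sema4b (1.01), H2-D1 (0.98), Dnajb4 (0.93) and Anxa5 (0.90). The same pattern was given by H2-K1 (0.90), Clu (0.90), Fn1 (0.87), Tpm1 (0.83), Cx3cl1 (0.82), Cgn (0.81), Pard6b (0.80) and Cdh2 (0.80). It was given too by Krt8 (0.78), Epha2 (0.77), Egfr (0.77), Itgav (0.76), Krt18 (0.70), S100a6 (0.51) and Anxa2 (0.51). Genes that passed as lower at 30 h and had not passed at 6 h were Mmp19 (-3.79), Ptgds (-3.50), Ifitm3 (-3.00), Fos (-2.17), Fhl1 (-1.73), Itgb3 (-1.08), Hes1 (-1.02) and Id1 (-0.96). Genes higher at both times, and more so at 30 h, were Btn1a1 (2.66), Ckb (2.29), Rnd1 (2.06), Ankrd1 (1.88), Ntn1 (1.77), Pycr1 (1.65), Plaur (1.52) and Fbln2 (1.38). To these are added Scn3a (1.37), Ccnd2 (1.22), Atf3 (1.15), Chac1 (1.15), Gadd45a (1.10), Runx1 (0.92), Aldh18a1 (0.90) and Cdkn2a (0.71). A further gene of this kind was Slc7a5 (0.66). Genes lower at both times, and more so at 30 h, were S100a8 (-6.08), Cfb (-5.52), Itgb7 (-3.53), Tnnt2 (-3.52), Mmp13 (-3.46), Pilra (-3.43), Pilrb1 (-3.32) and Spon2 (-3.22). Lower at both times and more so at 30 h were also Pilrb2 (-2.91), Col12a1 (-2.76), Sprr2g (-2.69), Cbln3 (-2.56), S100a4 (-2.37), Muc1 (-1.86), Id2 (-1.82) and Slco4a1 (-1.62). Lower at both times and more so at 30 h were also Lbp (-1.59), Gsta1 (-1.41), Ephx1 (-1.29), Cldn2 (-1.13), Ldha (-0.81), Gsto1 (-0.77), Cdkn2c (-0.61) and Ebp (-0.57). Added to these is Fads1 (-0.54). Genes lower at both times, and less so at 30 h, were Ccl2 (2.58), Wnt7a (2.04), Ptgs2 (1.31), Ppl (1.03), Tead3 (0.98), Bmf (0.97), Cxcl5 (0.85) and Nuak2 (0.82). Less low at 30 h than at 6 h were also Lamb3 (0.68) and Ajuba (0.50). Genes lower at 6 h that did not pass at 30 h were Hspa5 (0.70) and Tjp1 (0.69).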

How the results depend on the processing

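With all 8 libraries in the fit, 4248 genes passed at 30 h, and the alternatives gave 3068 (without BRM014 30 h replicate 2) to 4883, with no gene called in opposite directions. Library totals moved the median log2 fold change of all genes to 0.03 and the share of called genes that were lower from 53.2% to 47.5%. Of 228 named genes that passed, 194 kept call and direction under every alternative and 34 lost the call under at least 1. Srebf1, Jup and Mmp15 are not among the 228 and were not followed through the alternatives. Counts of genes whose effect differed between the times depended more on the setting. Without a filter on low counts the difference passed as more positive at 30 h in 719 genes and as more negative in 590, against 460 and 306. Over the 8 libraries left out in turn these counts ran from 200 to 533 and from 130 to 388, and with 1 library in a group that library is assumed to vary like the others. The difference could not be computed from the 4 libraries at 30 h alone.

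Replicate numbers occur in every group, but nothing in the labels says that a number marks a shared culture or day. Deviations of same-numbered libraries correlated with 0.201 between DMSO and BRM014 at 30 h and with 0.122 to 0.201 in 5 of the 6 pairs of groups and 0.011 in the other, and on the second principal component at 30 h (7.98% of the variance) both replicates 1 lay on 1 side. The pair of groups at 0.011 was DMSO at 6 h with BRM014 at 30 h, which differ in both time and treatment. Within a time the correlation was 0.201 at 30 h and 0.122 at 6 h, so these values do not exclude a pairing within each time. As the labels state no pairing, the main fit used none, and fits with a block are given beside it. A replicate block on the number gave 4873 calls at 30 h and a block within each time 4883, and all 4248 calls without the block were among them. For the difference between the times the block on the number gave 726 more positive and 511 more negative genes, and the block within each time 723 and 519. With 2 libraries a group and 17859693 to 29955366 counts each, a typical standard error of 0.13 on the log2 scale limits what could be called among small changes.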

Other observations

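Several families outside the comparisons above also changed with BRM014 at 30 h. Genes of axon guidance ligands and receptors, which in epithelia act in cell contact and migration, rose in 14 of 47 tested members and fell in 22. The ligand netrin 1, Ntn1 (Entrez 18208), went from 3.86 and 3.98 CPM to 20.1 and 24.5 CPM (2.51 ± 0.19, adjusted p = 5.11e-07), and the ephrin receptor Epha2 from 441 and 368 CPM to 826 and 880.3 CPM (1.08 ± 0.11). The semaphorin co-receptor Nrp1 (Entrez 18186) went from 253 and 265 CPM to 89.99 and 86.4 CPM (-1.56 ± 0.09, adjusted p = 6.00e-08). Among semaphorins of 1 class, Sema4b rose (94.96 and 82.8 to 191 and 251 CPM, 1.31 ± 0.14) and Sema4a fell (14.5 and 17.3 to 1.28 and 1.69 CPM, -3.38 ± 0.26). The groups did not overlap in any of these genes.

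In the S100 and annexin list, 14 of 24 tested members fell and 5 rose. Besides S100a4, the alarmin S100a8 had 94 and 138 counts in the DMSO libraries against 0 and 1 with BRM014, a ratio of 278 (95% interval 49.4 to 11010, counting error only), and Anxa8 went from 489.6 and 465 CPM to 173 and 126 CPM (-1.68 ± 0.14). The risers were Anxa5 (367 and 356 to 574 and 633 CPM, 0.74 ± 0.10), S100a6 (5949 and 5778 to 8752 and 8533 CPM, 0.56 ± 0.08), Anxa9 (1.27 ± 0.24) and, named after their values were seen, Anxa2 (0.49 ± 0.10) and Anxa6 (0.31 ± 0.11). The Anxa6 call ended without any 1 of the 4 libraries at 30 h (adjusted p up to 0.212). In the eicosanoid list both cyclooxygenases fell, Ptgs1 from 19.3 and 25.4 CPM to 4.01 and 2.64 CPM (-2.78 ± 0.26) and Ptgs2 from 145 and 82.7 CPM to 59.8 and 64.3 CPM (-0.87 ± 0.24). The Ptgs2 call ended with DESeq2 and without DMSO 30 h replicate 1 or either BRM014 library at 30 h (adjusted p up to 0.168). The prostaglandin D synthase Ptgds fell as well (5.27 and 6.61 to 0.321 and 0.293 CPM, -4.26 ± 0.39).

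Of the autophagy list, the cargo receptor Sqstm1, also an NRF2 target, went from 503 and 614 CPM to 1342 and 2195 CPM (1.66 ± 0.18, adjusted p = 1.22e-05), and Map1lc3a from 7.72 and 6.26 CPM to 21.8 and 22.6 CPM (1.67 ± 0.17). Gabarap overlapped between the groups (389 and 433 CPM against 388 and 342 CPM, -0.17 ± 0.10). Among imprinted genes, which are expressed from 1 parental copy, Mest rose from 0.272 and 0.263 CPM to 3.42 and 7.104 CPM (4.30 ± 0.47) and Peg3 fell from 44.9 and 84.7 CPM to 16.2 and 13.2 CPM (-2.15 ± 0.22), while Gnas did not pass (900.3 and 865 CPM against 908 and 864 CPM, 0.01 ± 0.08). The DMSO libraries of Peg3 and the BRM014 libraries of Mest differed from each other by about 2-fold. The organic anion transporter Slco4a1 fell from 189.9 and 342 CPM to 8.67 and 17.6 CPM (-4.30 ± 0.30), and the calcium channel subunit Cacna1g rose from 8.81 and 7.26 CPM to 41.4 and 38.5 CPM (2.32 ± 0.22). Of small GTPases that act on the actin skeleton, Rhou (249 and 267 to 104 and 117 CPM, -1.22 ± 0.11) and Rnd3 (192 and 178 to 89.7 and 69.4 CPM, -1.22 ± 0.13) fell while Rnd1 rose, and Rac1 did not pass (-0.02 ± 0.09).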
